A study of Homo sapiens with 6 samples.

Results

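The genes described here encode the eukaryotic translation initiation factors, whose symbols begin with EIF. Of 54261 gene rows in the count table, 141 begin with EIF. Left out were 6 rows by name (EIF2AK1, EIF2AK2, EIF2AK3, EIF2AK4, EIF2S1 and EIF4EBP1), 4 antisense rows and 82 pseudogene rows, which left 49 members. EIF4EBP2 and EIF4EBP3 were kept because they are coding genes, although their symbols end in P and a number as pseudogene symbols do. The members were compared between 786-O, an established line from a human clear-cell kidney carcinoma that lacks functional VHL, and 7R, a 786-O line that the labels call sunitinib-resistant. Sunitinib inhibits receptor tyrosine kinases including the VEGF and PDGF receptors. Total RNA was sequenced from 3 libraries of each line, called control and resistant below, and the labels name the same medium for both lines. The labels do not state whether the drug was present at harvest, whether 7R is 1 clone, or whether separate cultures gave the 3 libraries. The p-values therefore rest on a spread among libraries that may be technical only.

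Initiation factors bring the small ribosomal subunit, the initiator tRNA and the mRNA together. EIF2 carries the initiator tRNA as a complex with GTP, and EIF2B recharges EIF2 with GTP, a step that stress kinases block by phosphorylating EIF2. EIF1 and EIF1A guard the choice of start codon, EIF3 is the large scaffold on the small subunit, and EIF4E, EIF4G and EIF4A bind the cap and unwind the leader of the mRNA. EIF5 triggers GTP hydrolysis on EIF2, EIF5B joins the large subunit, EIF6 keeps free large subunits apart from small ones, and EIF5A acts mainly in elongation and termination. Growth signalling through mTOR acts on this machinery through the proteins that sequester EIF4E, so it is a common subject of work on kinase inhibitors.

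The control libraries held 48264905 to 52221491 counts and the resistant libraries 37919629 to 38131634. Levels are CPM, gene counts relative to the library's total, on the TMM scale, a scaling set by the typical gene, and fold changes are resistant over control with edgeR's quasi-likelihood test and Benjamini-Hochberg adjustment over 16642 genes, called at an adjusted p under 0.05. Where a library shows 0 counts, counting error alone leaves room for 3 counts, equal to 0.0574 to 0.0791 CPM by library size, before TMM scaling. The lines differed in most genes: 76.2% of the tested genes were called, 39.3% higher and 36.9% lower, and the groups did not overlap for 80.3%. Scaled by library size alone, the median log2 fold change of all tested genes was 0.39 in place of 0.05, and 62.4% of the called genes were higher in place of 51.6%, so the changes below hold relative to TMM. Across 14207 tested genes with a reference transcript, log2 fold change fell with GC content (Spearman's rho -0.69, across genes, which are not independent replicates). A second value is therefore given for members ("adjusted for GC" below). It comes from a fit that takes out each library's smooth trend with GC content and length. In that fit 67.1% of 14207 genes were called, 33.9% higher and 33.2% lower. It holds only genes with a reference transcript, which without adjustment already moved the members' median log2 fold change from -0.33 to -0.25. Gaps between a member's values before and after adjustment therefore include this change of gene set. Of 7 renal carcinoma markers 6 were detected, PAX8 at 544 and 407 CPM, and CA9 had 0 counts. Their sum was 12328 to 13518 CPM in control and 3272 to 4190 CPM in resistant libraries, most of it VIM. All 6 were lower, and adjusted for GC 2 were higher, PAX8 among them, and 3 lower. A brain region is mentioned in the extraction protocol, but among brain markers MOG and NEUROD6 had 0 counts and the 8 markers summed to 28.99 to 31.4 CPM in control and 40.6 to 44.3 CPM in resistant libraries, most of it MBP. The immune markers PTPRC and CD3E had 0 counts, the 4 immune markers summed to 39.8 to 46.5 CPM in control and 8.24 to 9.93 CPM in resistant libraries, most of it CD68, and 3 endothelial markers summed to at most 0.817 CPM. The part of these markers in the results below was not tested. In bulk RNA, fewer cells of a kind and less RNA per cell cannot be told apart.

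Of the 49 members, 46 passed the filter on low counts, 17 were higher in the resistant line, 23 were lower and 6 were not called. The share called was 87.0%, beside 76.2% of all tested genes, and the groups did not overlap for 40 members (87.0%, beside 80.3%). The median log2 fold change was -0.33, against 0.05 over all tested genes. Changes of at least 2-fold were called for 8 higher and 7 lower members (49.4% of all tested genes changed that much). By library size alone 18 members were higher and 17 lower. The resistant libraries were not alike: in 34 of the 40 called members resistant replicate 1 was the resistant library closest to the control mean. The like share over all called genes was not computed, so this is not read as a trait of the members. Without that library, 18 members were higher and 25 lower. Over all tested genes the calls rose too, to 6789 higher and 6410 lower from 6540 and 6143. Adjusted for GC, 7 members were higher, 22 lower and 17 not called, and the median was -0.18 against 0.01 for all genes in that fit. Of all genes in it, 33.9% were higher and 33.2% lower. On the same genes without adjustment, 18 members were higher and 21 lower, and their median was -0.25.

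**Figure D1:**
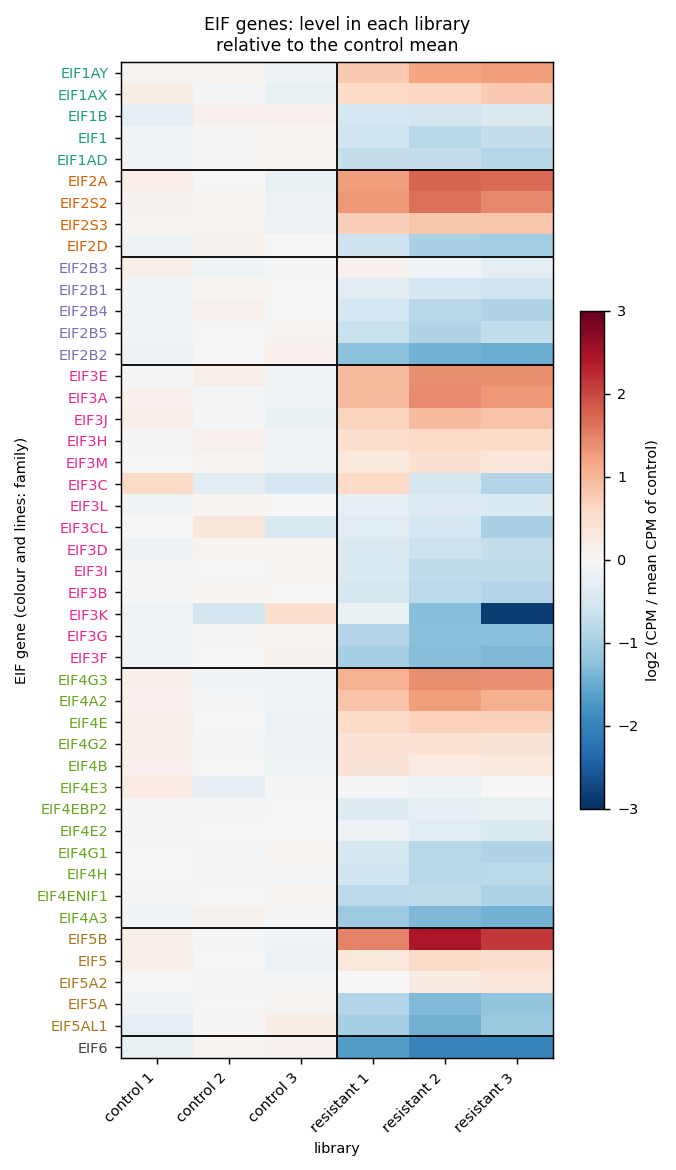
Level of each of the 46 tested EIF genes in each library (columns) as log2 of CPM over the control mean, with rows grouped by family and ordered by fold change and the colour scale ending at ±3. EIF5B, EIF2A and EIF2S2 are the reddest rows, EIF6 is the bluest among well expressed genes, and resistant replicate 1 is paler than the other resistant libraries in most rows.

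In the initiator tRNA branch, 3 of the 4 EIF2 members rose and 1 fell, and 4 of the 5 EIF2B subunits fell, beside 39.3% higher and 36.9% lower over all tested genes. Adjusted for GC, 2 EIF2 members were higher and 1 lower, and 3 EIF2B subunits were lower and 2 not called. Over all genes in that fit, 33.9% were higher and 33.2% lower. The difference between these families was not tested. EIF2S2, the beta subunit of EIF2, stood at 58.3, 55.9 and 48.0 CPM in the control libraries and at 133, 171 and 147 CPM in the resistant ones. The groups did not overlap, and the rise was 2.78-fold (log2 fold change 1.48 ± 0.12, SE, edgeR adjusted p = 7.13e-07). It was 1.07 when adjusted for GC, still called. EIF2S3, the gamma subunit that binds GTP and the tRNA, rose from 242 ± 20.6 to 420 ± 21.9 CPM (SD, n = 3 libraries a line), a log2 fold change of 0.79, which was 0.03 and not called when adjusted for GC (adjusted p = 0.745, edgeR). EIF2A, a separate protein that can deliver the initiator tRNA without EIF2, was measured at 40.5, 34.6 and 29.9 CPM in control and 83.0, 117 and 114 CPM in resistant libraries. All resistant values lay above all control values, and the log2 fold change was 1.58 ± 0.16 (edgeR adjusted p = 2.06e-06; adjusted for GC 0.61, called). EIF2D, another tRNA-delivering factor, moved the other way, from 75.2, 90.4 and 84.4 CPM to 54.4, 42.3 and 40.4 CPM (log2 fold change -0.87 ± 0.13, edgeR adjusted p = 8.08e-05; adjusted for GC -0.32, called).

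EIF2B is a decamer of 5 kinds of subunit, of which EIF2B5 and EIF2B3 form the catalytic arm and EIF2B1, EIF2B2 and EIF2B4 the regulatory core that senses phosphorylated EIF2. EIF2B2 had the largest change, from 74.8, 82.4 and 90.2 CPM to 35.0, 30.8 and 29.2 CPM. The groups were far apart, with a log2 fold change of -1.38 ± 0.12 (edgeR adjusted p = 8.23e-07), and the fall was larger when adjusted for GC (-1.80). That adjustment took a length of 4314 bases and 45.8% GC for EIF2B2, while its 1056 coding bases have 53.5% GC. Whether the fall is larger at the GC content of the coding bases was not tested. EIF2B5 was at 54.3, 58.5 and 61.04 CPM in control and 36.5, 31.1 and 34.5 CPM in resistant libraries (log2 fold change -0.77; adjusted for GC -0.24, called). EIF2B4 was at 48.2, 58.2 and 52.8 CPM against 37.5, 29.7 and 28.2 CPM (-0.74), again without overlap, but was at 0.19 and not called when adjusted for GC (edgeR adjusted p = 0.0715). EIF2B1 fell least among the called subunits (-0.48, adjusted for GC -0.37), and its call was lost by library size alone (-0.13, edgeR adjusted p = 0.295). EIF2B3 was not called, with 22.8, 18.4 and 19.5 CPM in control and 21.98, 18.4 and 16.4 CPM in resistant libraries (log2 fold change -0.10 ± 0.14, edgeR adjusted p = 0.551). Exons of EIF2B2 and EIF2B1 overlap exons of opposite-strand genes over 29.3% and 16.2% of their length in GENCODE 29, and without a stated strand setting the reads of such partners cannot be told apart.

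Of the 14 members of EIF3, the scaffold, 5 rose (35.7%), 6 fell (42.9%) and 3 did not pass, shares near the 39.3% and 36.9% of all tested genes. Adjusted for GC, 2 were higher, 4 lower and 8 not called, beside 33.9% higher and 33.2% lower over all genes. The risers were EIF3E, EIF3A, EIF3J, EIF3H and EIF3M. EIF3A, the largest subunit, around which the others assemble, was at 158, 140 and 134 CPM in control and 274, 387 and 357 CPM in resistant libraries. The groups were apart, with a log2 fold change of 1.23 ± 0.13 (edgeR adjusted p = 4.27e-06), and 0.70 when adjusted for GC, still called. EIF3E stood at 158, 187 and 152 CPM against 313, 433 and 436 CPM (log2 fold change 1.25 ± 0.14, edgeR adjusted p = 5.62e-06), of which 0.16 was left when adjusted for GC, no longer called (edgeR adjusted p = 0.126), though it was called without resistant replicate 1 (0.21, edgeR adjusted p = 0.0377). EIF3J, a loosely bound subunit, and EIF3H rose by 0.83 and 0.54 in log2 units, and adjusted for GC both were at 0.06 and not called. EIF3M rose by 0.38 and turned to -0.87, called lower, when adjusted for GC. The risers had transcripts of 37.2% to 45.2% GC, and those of the 6 subunits that fell had 49.4% to 60.3%.

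The EIF3 subunits that fell were EIF3F, EIF3G, EIF3B, EIF3I, EIF3D and EIF3L. EIF3F, which carries a deubiquitinase-like fold, dropped from 178, 190 and 204 CPM to 95.4, 79.0 and 75.1 CPM. No resistant library reached the control range, with a log2 fold change of -1.20 ± 0.12 (edgeR adjusted p = 1.98e-06), and -0.41 adjusted for GC, called. EIF3B, EIF3G and EIF3I form a module at the edge of the complex and fell by 0.70, 1.12 and 0.64 in log2 units. Adjusted for GC they parted: EIF3B was called higher (0.19, edgeR adjusted p = 0.0379), a call lost without resistant replicate 1 (0.12, edgeR adjusted p = 0.108), EIF3G was not called (0.09) and EIF3I was called lower (-0.22). EIF3D, a subunit with cap-binding activity on some mRNAs, fell from 587 ± 49.99 to 387 ± 40.5 CPM (-0.60; adjusted for GC -0.07, not called), and its call was narrowly lost by library size alone (-0.26, edgeR adjusted p = 0.0509). EIF3L fell by 0.36 on the log2 scale (-0.16 when adjusted for GC, called), a value that was -0.02 and not called by library size alone (edgeR adjusted p = 0.869), and 41.6% of its exon length overlaps a same-strand gene.

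The remaining EIF3 members were not called, and EIF3CL and EIF3K had few counts. EIF3C, a core subunit, had 634, 323 and 297 counts in control and 623, 285 and 217 in resistant libraries (edgeR adjusted p = 0.782). Replicate 1 of both lines was the high library. Without resistant replicate 1 EIF3C was called lower (log2 fold change -0.69, edgeR adjusted p = 0.0339), and without control replicate 1 it was at 0.27. Adjusted for GC, EIF3C was at 0.57 and not called (edgeR adjusted p = 0.166). EIF3CL, its near-identical copy, had 40 to 67 counts in control and 26 to 42 in resistant libraries (edgeR adjusted p = 0.147), and reads of the pair may be split or dropped between them. EIF3K had 30 to 64 counts in control and 6 to 38 in resistant libraries (log2 fold change -1.07 ± 0.55, edgeR adjusted p = 0.0934). Without resistant replicate 1 it was called lower (-1.85, edgeR adjusted p = 0.00778). Exons of EIF3K overlap no other gene of GENCODE 29, and the reason for its low count was not tested.

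Of 15 EIF4 members, 12 were tested, 5 rose (41.7%), 6 fell (50%) and EIF4E3 did not pass, beside 39.3% higher and 36.9% lower over all tested genes. Adjusted for GC, 2 were higher, 7 lower and 3 not called, beside 33.9% higher and 33.2% lower over all genes. The scaffold EIF4G holds the cap complex together, and its paralogs went different ways. EIF4G1, the main scaffold and the most abundant EIF gene by counts, was at 2022, 1964 and 2140 CPM in control and 1471, 1144 and 1091 CPM in resistant libraries. The groups were apart, with a log2 fold change of -0.73 ± 0.12 (edgeR adjusted p = 0.000145), and 0.10, not called, when adjusted for GC (edgeR adjusted p = 0.257). EIF4G3 stood at 59.0, 50.6 and 50.05 CPM against 109, 139 and 137 CPM, a log2 fold change of 1.27 ± 0.13 (edgeR adjusted p = 2.11e-06) that was 0.95 and still called when adjusted for GC. EIF4G2, which lacks the EIF4E binding site and serves cap-independent initiation, rose from 878 ± 98.2 to 1165 ± 21.1 CPM (0.41), and was called lower (-0.34) when adjusted for GC.

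The helicase EIF4A could be read only in part. EIF4A1, the main unwinding helicase, had 0 counts in all 6 libraries, and in GENCODE 29 all of its exon length lies within exons of other genes on the same strand, the read-through gene SENP3-EIF4A1 among them. The SENP3-EIF4A1 row held 7 to 18 counts per library, and the pseudogene row EIF4A1P10 held 521 to 608 counts in control and 293 to 367 in resistant libraries. No level of EIF4A1 can be given from these rows. EIF4A2, its close paralog, was at 50.8, 44.3 and 43.6 CPM in control and 84.1, 110 and 96.5 CPM in resistant libraries, all above the control range (log2 fold change 1.07 ± 0.13, edgeR adjusted p = 8.12e-06). Adjusted for GC, EIF4A2 was at 0.17 and not called (edgeR adjusted p = 0.0626). EIF4A3, which is a core part of the exon junction complex and not of the cap complex, fell from 67.7, 77.8 and 70.9 CPM to 34.1, 28.3 and 26.8 CPM (log2 fold change -1.28 ± 0.12, edgeR adjusted p = 1.78e-06; adjusted for GC -0.81, called). Of the helicase cofactors, EIF4H fell from 489 ± 15.8 to 293 ± 25.1 CPM (-0.74; adjusted for GC -0.26, called). EIF4B rose from 426 ± 38.1 to 532 ± 25.1 CPM (0.32; adjusted for GC 0.47, called), a call lost without control replicate 2 (0.27, edgeR adjusted p = 0.0832) or control replicate 3 (0.22, edgeR adjusted p = 0.103).

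At the cap itself, EIF4E, the cap-binding protein, was at 31.1, 27.8 and 24.5 CPM in control and 41.6, 45.3 and 44.9 CPM in resistant libraries. The groups were apart (log2 fold change 0.66 ± 0.12, edgeR adjusted p = 0.000276), but EIF4E was at -0.05 and not called when adjusted for GC. EIF4E2, which binds caps and represses translation, was at 110, 114 and 113 CPM against 99.9, 88.3 and 85.1 CPM (-0.30 ± 0.10, edgeR adjusted p = 0.0177). Opposite-strand genes overlap 33.2% of its exon length. The call was lost without resistant replicate 2 (-0.28, edgeR adjusted p = 0.0615) or resistant replicate 3 (-0.26, edgeR adjusted p = 0.0800), and by library size alone the value was 0.04. EIF4E3 did not pass, at 8.13, 5.83 and 6.65 CPM in control and 6.59, 6.21 and 6.83 CPM in resistant libraries, which overlapped (edgeR adjusted p = 0.720), and was called lower when adjusted for GC (-1.33). EIF4E1B, a germ cell paralog, had 0 counts in all libraries. EIF4EBP2, which sequesters EIF4E until mTOR phosphorylates it, fell from 233 ± 9.02 to 191 ± 8.76 CPM (-0.29, edgeR adjusted p = 0.0150; adjusted for GC -1.09), but was at 0.05 by library size alone. EIF4EBP3, a related sequestering protein, had 0, 0 and 1 counts in control and 2, 5 and 2 in resistant libraries, too few to test, and 73.4% of its exon length lies within a same-strand read-through gene. EIF4ENIF1, which carries EIF4E into the nucleus and into P-bodies, fell from 111 ± 4.39 to 62.5 ± 3.92 CPM (-0.83; adjusted for GC -0.61, called).

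**Figure D2:**
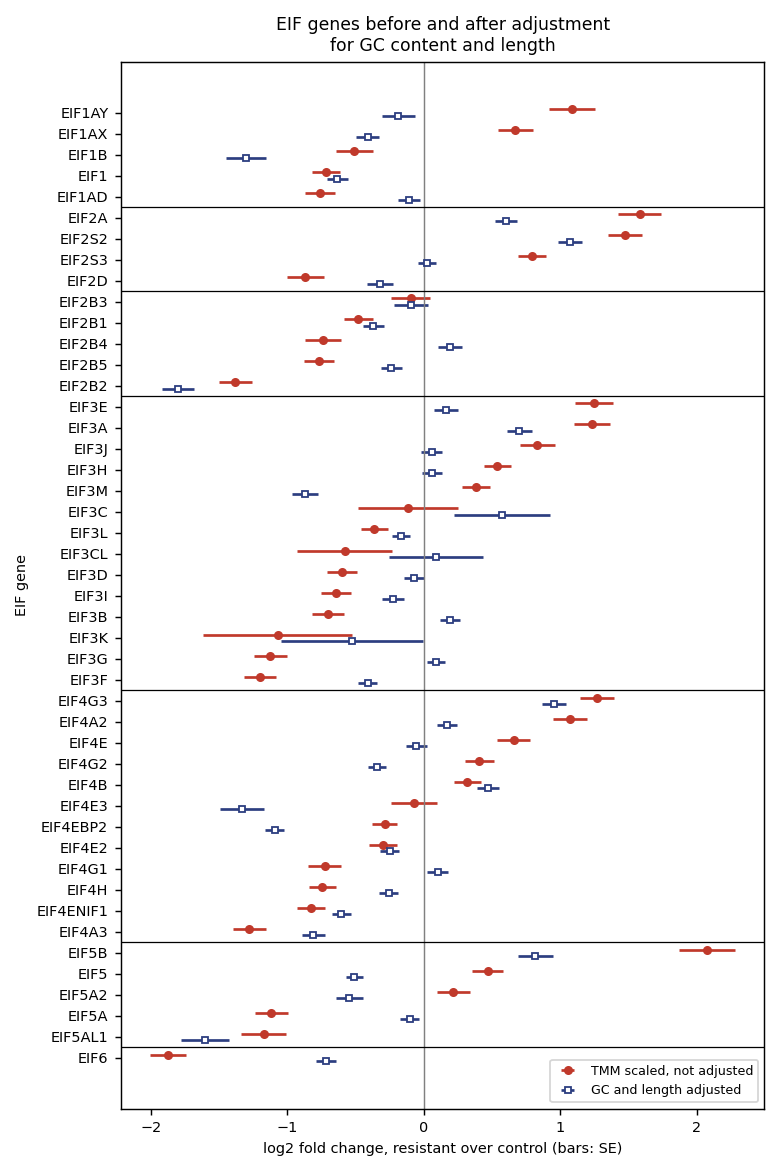
Log2 fold change (resistant over control) of the 46 tested EIF genes with SE bars, before adjustment (filled circles) and adjusted for GC content and length (open squares), by family. EIF2B2 and EIF5AL1 lie further below 0 after adjustment, EIF2S2 and EIF4G3 stay near 1, and EIF1AX, EIF3M, EIF4G2 and EIF5 cross from above to below 0.

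Among the late-acting factors, EIF5B rose most and EIF6 fell most of all tested members before adjustment for GC, and EIF2S2 (1.07) and EIF2B2 (-1.80) after it. EIF5B, the GTPase that joins the ribosomal subunits, was at 28.4, 24.8 and 23.1 CPM in control and 71.1, 139 and 111 CPM in resistant libraries. The resistant libraries spread widely but stayed above the controls, with a 4.22-fold rise (log2 fold change 2.08 ± 0.20, edgeR adjusted p = 2.08e-06), and 0.82 adjusted for GC, called. EIF6 was at 222, 278 and 283 CPM in control and 82.1, 65.8 and 66.1 CPM in resistant libraries. Every resistant library lay far below every control library, a 3.66-fold fall (log2 fold change -1.87 ± 0.13, edgeR adjusted p = 2.42e-07), and -0.71 adjusted for GC, called. Other genes overlap 14.7% of the exon length of EIF5B, on the opposite strand, and 17.4% of that of EIF6, on the same strand. EIF5, which makes EIF2 hydrolyse GTP, rose from 105 ± 11.5 to 145 ± 12.5 CPM (0.47), and was called lower when adjusted for GC (-0.51).

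EIF5A and EIF5A2 encode closely related proteins that carry hypusine, a modified lysine. EIF5A was at 747, 800 and 851 CPM in control and 433, 320 and 353 CPM in resistant libraries, a log2 fold change of -1.12 ± 0.12 (edgeR adjusted p = 4.48e-06). EIF5A2 did not pass, at 32.6, 33.3 and 32.0 CPM against 32.1, 39.6 and 41.9 CPM (0.22 ± 0.12, edgeR adjusted p = 0.125). Resistant replicate 1 was in the control range for EIF5A2, and without that library it was called higher (0.31, edgeR adjusted p = 0.0104). By library size alone EIF5A2 was called higher too (0.56, edgeR adjusted p = 0.00129). Adjusted for GC, the order was reversed, with EIF5A at -0.10 and not called and EIF5A2 at -0.54 and called lower. Without resistant replicate 1 in that fit EIF5A was called lower too (-0.17, edgeR adjusted p = 0.0189). For EIF5A2 the adjustment took 570 bases and 43.9% GC, while its principal transcript has 5593 bases and 34.3% GC. Whether the reversed order holds at the values of the principal transcript was not tested. EIF5AL1, a copy of EIF5A that may share its reads, was at 20.9, 26.5 and 30.1 CPM against 13.05, 9.44 and 11.9 CPM, with no overlap (-1.17; adjusted for GC -1.602, called). The adjustment took 3840 bases and 45.6% GC for EIF5AL1, while its 465 coding bases have 51.2% GC and EIF5A was adjusted at 57.0%. Whether the fall of EIF5AL1 is larger at the GC content of its coding bases was not tested.

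The coding sequences of this pair show how far paralogs with like proteins differ in base composition. In GENCODE 29 (GRCh38), EIF5A lies on the plus strand at chr17:7306999-7312463 and EIF5A2 on the minus strand at chr3:170888415-170908693. Their coding sequences of 465 and 462 bases agree at 71.7% of 462 aligned bases, and 101 of the 131 differing bases are at the third codon position. At the differing bases EIF5A has G or C in 82 and EIF5A2 in 40, and the GC content of the whole coding sequence is 51.4% and 42.4%. The first 300 coding bases are shown 5′ to 3′ from the start codon, with the 70 differing bases in capitals.
EIF5A: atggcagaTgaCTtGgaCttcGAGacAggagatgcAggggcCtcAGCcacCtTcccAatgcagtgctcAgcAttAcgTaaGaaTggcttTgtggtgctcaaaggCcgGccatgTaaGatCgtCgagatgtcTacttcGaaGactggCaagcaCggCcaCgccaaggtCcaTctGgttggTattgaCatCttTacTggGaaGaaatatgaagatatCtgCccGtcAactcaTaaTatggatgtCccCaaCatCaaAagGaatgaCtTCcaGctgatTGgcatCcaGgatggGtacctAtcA
EIF5A2: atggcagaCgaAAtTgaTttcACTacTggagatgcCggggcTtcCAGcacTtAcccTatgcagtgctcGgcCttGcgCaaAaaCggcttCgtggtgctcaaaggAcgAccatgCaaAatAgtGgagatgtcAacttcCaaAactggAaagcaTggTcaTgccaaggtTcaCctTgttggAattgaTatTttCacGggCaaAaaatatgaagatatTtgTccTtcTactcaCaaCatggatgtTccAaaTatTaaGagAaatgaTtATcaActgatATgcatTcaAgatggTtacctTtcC

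Of the 5 members with symbols that begin with EIF1, 2 rose and 3 fell, beside 39.3% higher and 36.9% lower over all tested genes. Adjusted for GC, 3 were lower and 2 not called, beside 33.9% higher and 33.2% lower over all genes. EIF1, the main gatekeeper, was at 379, 420 and 428 CPM in control and 268, 229 and 251 CPM in resistant libraries. The groups were apart (log2 fold change -0.71 ± 0.10, edgeR adjusted p = 4.38e-05; adjusted for GC -0.63, called). EIF1B, its paralog, was at 18.5, 24.5 and 24.4 CPM against 15.6, 15.1 and 16.6 CPM, also apart (-0.51; adjusted for GC -1.30, called), with the call lost by library size alone (-0.16, edgeR adjusted p = 0.273). EIF1AX and EIF1AY, the X- and Y-linked copies of EIF1A, had log2 fold changes of 0.67 and 1.08, both called, and reads may be shared between them. EIF1AY stood at 5.79, 5.64 and 4.86 CPM in control and 9.37, 12.3 and 12.9 CPM in resistant libraries. Adjusted for GC, EIF1AX was called lower (-0.41) and EIF1AY was not called (-0.19). EIF1AD, a protein with an EIF1A-like domain, was at 46.8, 52.4 and 54.6 CPM against 31.0, 31.4 and 28.5 CPM (-0.76 ± 0.11, edgeR adjusted p = 4.90e-05; adjusted for GC -0.11, not called).

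Ratios of paralogs within a library do not depend on how libraries are scaled, and 4 pairs were compared. EIF4G3 made up 2.83%, 2.51% and 2.29% of the summed EIF4G3 and EIF4G1 counts in control and 6.90%, 10.8% and 11.2% in resistant libraries. EIF5A2 made up 4.18%, 3.99% and 3.62% of the EIF5A2 and EIF5A counts in control and 6.90%, 11.01% and 10.6% in resistant libraries. EIF4E made up 22.04%, 19.6% and 17.9% of the EIF4E and EIF4E2 counts in control and 29.4%, 33.9% and 34.6% in resistant libraries. In these 3 pairs the groups were apart, each with an exact two-sided permutation p = 0.1 on the log2 ratio (0.133 after Benjamini-Hochberg adjustment over the 4 pairs), the smallest p that 3 against 3 libraries allow. EIF1B made up 5.19% ± 0.470 of the EIF1B and EIF1 counts in control and 5.97% ± 0.410 in resistant libraries (SD, n = 3, exact permutation p = 0.2), and the groups overlapped. The log2 ratio rose by 2.003 for EIF4G3 over EIF4G1, 1.33 for EIF5A2 over EIF5A and 0.97 for EIF4E over EIF4E2. Adjusted for GC these differences were 0.85, -0.45 and 0.20, and EIF1B over EIF1 moved from 0.22 to -0.65. Per transcript length, EIF4G3 was 2.31% and 8.81% of its pair, EIF5A2 8.55% and 19.3%, and EIF4E 23.4% and 37.3%, in control and resistant libraries. These lengths are medians over a gene's transcripts, 570 bases for EIF5A2 and 1114.5 for EIF4E. The principal transcripts of these genes have 5593 and 11523 bases, so the levels of their shares depend strongly on the length taken.

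**Figure D3:**
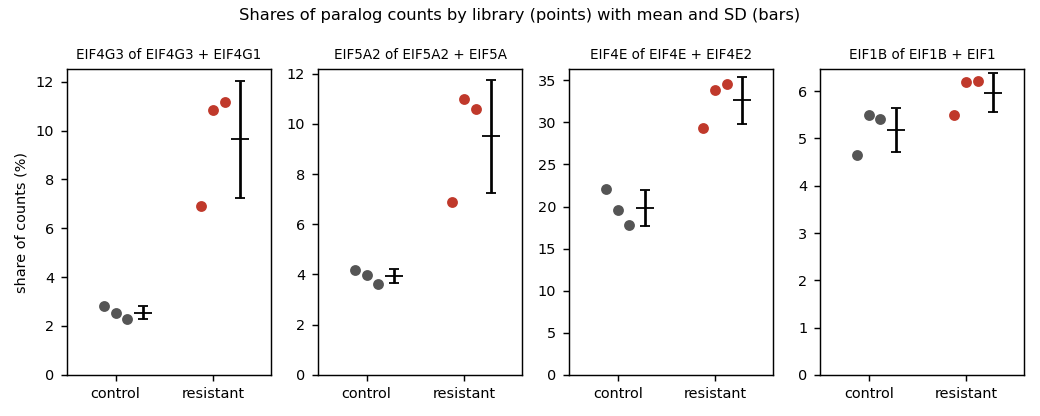
Share of a gene in the summed counts of its paralog pair (percent, axes from 0) in each control and resistant library (points), with the mean and SD of 3 libraries (bars). The EIF4G3, EIF5A2 and EIF4E shares are higher in every resistant library than in any control library, and the EIF1B shares overlap.

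Direction among the members moved with the base composition of their transcripts. The 17 members that rose had 35.9% to 48.8% GC (median 41.7%) and the 23 that fell had 42.8% to 60.3% (median 51.9%), while the median over all tested genes with a value was 48.9%. Spearman's rho of GC content with log2 fold change was -0.76 over the 46 tested members, and -0.69 over all 14207 genes. These points come from the same 6 libraries. After adjustment the members' rho was 0.09, which the adjustment is built to give. Of the 46 tested members, 22 (47.8%) were called in the same direction with and without the adjustment, beside 46.1% of all genes. The 6 that rose in both were EIF2A, EIF2S2, EIF3A, EIF4B, EIF4G3 and EIF5B. The 16 that fell in both were EIF1, EIF1B, EIF2B1, EIF2B2, EIF2B5, EIF2D, EIF3F, EIF3I, EIF3L, EIF4A3, EIF4E2, EIF4EBP2, EIF4ENIF1, EIF4H, EIF5AL1 and EIF6. Another 13 called members were no longer called, and 5 turned: EIF1AX, EIF3M, EIF4G2 and EIF5 from higher to lower and, only with resistant replicate 1 included, EIF3B from lower to higher. Whether the GC trend is technical was not tested, and the adjustment takes out a trend of any origin.

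**Figure D4:**
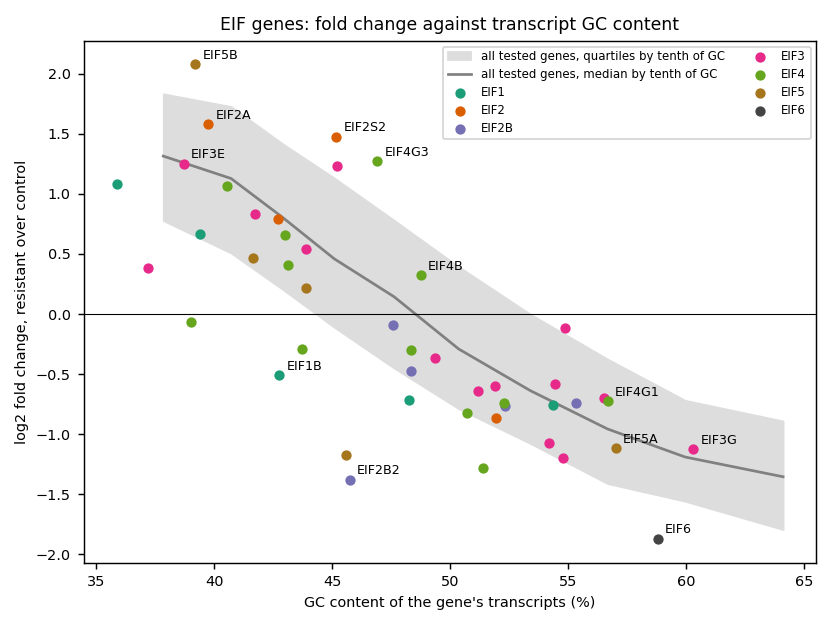
Log2 fold change (resistant over control) of the 46 tested EIF genes (points, coloured by family) against the median GC content of their GENCODE 29 transcripts, over the median (line) and quartiles (band) of all tested genes in bins of GC content. Most members lie within the band, with EIF5B, EIF2S2 and EIF4G3 among those above it and EIF2B2, EIF1B and EIF6 among those below it.

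Promoters of the members were examined because EIF4E is a known target of MYC, which binds the E-box CACGTG. RefSeq promoters (GRCh38.p14, 250 bases before to 50 after the start) were found for 42 members. CACGTG, which reads the same on both strands, was in 11 of them (26.2%) and in 7.43% of 27305 promoters of that length. It was in 2 of the 13 promoters of members that rose, in 5 of the 21 of members that fell, in 3 of the 5 of tested members not called and in 1 of the 3 of members not tested. TGATGNAAN, a site of ATF4 with CEBP partners, was searched on both strands and was in none of the 42 and in 3.67% of all promoters. GGAAGTG, a site of ETS factors, was in 10 of the 42 (23.8%) and in 11.5% of all. The promoters compared were not matched to those of the members for GC content or expression, and the differences were not tested. The 250 bases before the start are shown for EIF4E and EIF4G1, which each hold CACGTG at more than 1 place (capitals). EIF4E rose and EIF4G1 fell before adjustment for GC, and neither was called after it (-0.05 and 0.10). EIF4E is on the minus strand at chr4:98929134-98929383 and EIF4G1 on the plus strand at chr3:184314356-184314605.
EIF4E: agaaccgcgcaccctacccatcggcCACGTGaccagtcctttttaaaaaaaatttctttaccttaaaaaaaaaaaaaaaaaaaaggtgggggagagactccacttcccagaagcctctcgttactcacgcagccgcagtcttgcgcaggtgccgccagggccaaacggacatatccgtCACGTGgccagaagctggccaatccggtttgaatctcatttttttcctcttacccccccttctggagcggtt
EIF4G1: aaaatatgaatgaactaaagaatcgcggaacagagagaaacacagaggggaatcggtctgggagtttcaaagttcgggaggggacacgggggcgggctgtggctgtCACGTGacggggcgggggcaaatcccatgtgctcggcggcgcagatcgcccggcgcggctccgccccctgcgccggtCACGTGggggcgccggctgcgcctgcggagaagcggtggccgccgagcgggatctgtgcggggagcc

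Of the 82 EIF pseudogene rows, which are not members, 50 had 0 counts and 12 were tested beside a tested member. Of these 12, 6 were called, and all 12 had a log2 fold change of the same sign as the parent. Whether reads of parent and pseudogene were shared was not tested. Some rows too low to test went the other way, such as EIF5AP3 with 18 counts in all control and 44 in all resistant libraries, EIF3KP1 with 8 and 31 and EIF1P1 with 1 and 19, named after their values were seen. EIF2S2P4 held 1103 counts in all control and 4025 in all resistant libraries (1.91 on the log2 scale, EIF2S2 1.48), and EIF3FP3 held 6018 and 2973 (-0.97, EIF3F -1.20). With pseudogene counts added to the parent, every tested member kept its direction and call. Under that setting 24 members were called lower in place of 23. The added one was EIF4A1, from the counts of its pseudogene rows, which do not give its own level.

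Other genes of translation were read from 4 lists, whose counts stand beside 39.3% higher and 36.9% lower over all tested genes. Of 22 partners of initiation 19 were tested, 11 rose and 4 fell. PDCD4, which blocks EIF4A, rose from 6.18 ± 1.003 to 43.1 ± 7.45 CPM (2.80 in log2 units, 1.596 adjusted for GC), and the helicase DDX3X from 136 ± 9.80 to 321 ± 39.4 CPM (1.24, adjusted for GC 0.25). MKNK2 and MKNK1, the kinases that phosphorylate EIF4E, fell by 1.10 and 0.56 in log2 units, and adjusted for GC MKNK2 was called higher (0.30) and MKNK1 was not called (-0.08). ABCF1, an EIF2 partner, is listed at 0 in every library, as is EIF4A1, and whether this reflects expression or counting was not tested. Of 11 elongation factors 1 rose and 7 fell, with a median log2 fold change of -0.95 that was -0.10 adjusted for GC. EEF1E1 rose by 0.75, and EEFSEC, which decodes selenocysteine, and DOHH, which completes the hypusine of EIF5A, fell by 1.34 and 1.44, while adjusted for GC these were -0.54, 0.06 and 0.20, only EEF1E1 called of the 3. Of 5 tested termination and recycling factors 3 rose and 1 fell: HBS1L and ETF1 rose by 1.501 and 1.14 (adjusted for GC 0.51 and 0.32) and PELO fell by 0.45 (-0.93). Of 9 mitochondrial translation factors 6 rose and 1 fell: MTIF2 and GFM1 rose by 1.77 and 1.08 (adjusted for GC 0.89 and 0.09), and TUFM fell by 1.65 (-0.53). Adjusted for GC the counts of higher and lower genes were 6 and 6 of 19 initiation partners, 2 and 4 of 11 elongation factors, 2 and 3 of 5 termination factors and 2 and 3 of 9 mitochondrial factors, beside 33.9% and 33.2% of all genes.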

How the data were processed

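Total RNA of 6 libraries, 3 per line, was analysed from the authors' deposited table of raw counts per gene symbol, whose columns carry the sample titles, with 0 columns of other samples. HISAT2 2.0.4 was among the tools, per the submitters' processing notes. For the counting program, strand setting, build and annotation, each is not given in the sources used here.

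Genes were kept by edgeR's filterByExpr, scaled by TMM (factors 0.867 to 1.14) and tested by quasi-likelihood in edgeR 4.0.16 under R 4.3.3, control against resistant with no covariate. A standard error is the size of the log2 fold change divided by the root of the F statistic. GC content and length are medians over a gene's GENCODE 29 basic transcripts, found for 14207 (85.4%) of the tested genes and all 49 members. For the GC adjustment, natural splines with 6 degrees of freedom for GC content and 5 for log2 length were fitted to each library's deviation from the gene mean and used as an offset. The rule for named members took, in each family, the 3 with the largest called change and a mean of at least 5 CPM, the paralog pairs and those not called. Values of other members are given more briefly and were chosen after they were seen. Members, lists and the GC adjustment were chosen with earlier results of these data known.

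On simulated counts of 16212 genes the test called 31.3% of true 1.5-fold changes, 77.6% of 2-fold ones and 95.5% of 4-fold ones, with 9.93% of its calls false. Only 67, 67 and 66 genes were changed by these folds. In the data 76.2% of genes were called, which makes the cut-off on p looser, so these rates do not carry over to the data. Alternatives were other scalings, other filters, DESeq2 1.42.0, single libraries left out, a replicate block, GC adjustments and, chosen after seeing the data, pseudogene counts added to parents. The planned pair EIF4A1 with EIF4A2 was not compared because EIF4A1 had 0 counts.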

Additional observations from a re-analysis of the deposited data

How the results depend on the processing

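The counts of members called stayed at 16 to 18 higher and 17 to 25 lower under every scaling, filter, tool and left-out library and with the replicate block alone, and leaving out EIF4EBP2 and EIF4EBP3 gave 17 higher and 22 lower. They moved with GC content: 7 members were higher with GC content and length adjusted (also without resistant replicate 1), and 8 with GC alone or with the replicate block added. The members' median log2 fold change of -0.33 was 0.01 by library size alone and -0.46 to -0.32 with single libraries left out. Adjusted for GC and length it was -0.18 (-0.18 with the replicate block, -0.21 without resistant replicate 1). On genes with a GC value but without adjustment it was -0.25, so part of the move to -0.18 came with the gene set. DESeq2 changed no member's direction or call. Deviations of same-numbered libraries correlated at -0.13, -0.01 and -0.06, which shows no shared deviation. With 3 libraries a line, this cannot exclude that the libraries were paired. The replicate block alone left 17 members higher and 21 lower, and EIF4E2 and EIF4EBP2 were no longer called. Added to the GC and length adjustment, the replicate block made EIF3C called higher (edgeR adjusted p = 0.00528) and ended the call of EIF3L (-0.16, edgeR adjusted p = 0.0866). With 3 libraries a line, an absent call does not show that a gene was unchanged.

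Log2 fold changes that turned sign are given in the order GC and length, GC alone, GC and length with the replicate block, and GC and length without resistant replicate 1. EIF1AX had -0.41, -0.48, -0.41 and -0.48. EIF1AY had -0.19, -0.24, -0.19 and -0.16. EIF2B4 had 0.19, 0.051, 0.19 and 0.10. EIF3B had 0.19, 0.21, 0.19 and 0.12. EIF3C had 0.57, 0.59, 0.55 and 0.065. EIF3G had 0.090, 0.10, 0.089 and 0.041. EIF3M had -0.87, -0.90, -0.87 and -0.96. EIF4E had -0.054, -0.084, -0.052 and -0.062. EIF4G1 had 0.10, 0.20, 0.10 and 0.0039. EIF4G2 had -0.34, -0.32, -0.34 and -0.40. EIF5 had -0.51, -0.47, -0.51 and -0.52. EIF5A2 had -0.54, -0.41, -0.55 and -0.47. EIF3CL turned in the first 3 only (0.092, 0.10 and 0.11), and EIF3H and EIF3J with GC alone (-0.083 and -0.084). By library size alone EIF2B3 (0.25), EIF3C (0.22), EIF4E2 (0.042), EIF4E3 (0.27) and EIF4EBP2 (0.055) turned positive, and EIF4E3 was at 0.015 when only genes with a GC value were tested without adjustment. With single libraries left out, EIF3C ranged from -0.69 to 0.27 and EIF4E3 from -0.22 to 0.014. The log2 ratio turned for EIF5A2 over EIF5A (-0.45) and EIF1B over EIF1 (-0.65) when adjusted for GC. The cause of these changes was not tested.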

Other observations

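Per kilobase of transcript, the 11 well counted EIF3 subunits lay closer together in the resistant line. Among them, EIF3C, EIF3CL and EIF3K left out, the SD of log2 CPM per kilobase was 1.19, 1.30 and 1.36 in the control libraries and 0.88, 0.82 and 0.85 in the resistant ones. The ratio of the highest to the lowest subunit was 9.31, 12.4 and 12.6 in control (EIF3D over EIF3A) and 4.92, 5.83 and 6.26 in resistant libraries (EIF3E over EIF3J or EIF3M). This comparison was chosen after the values were seen, transcript lengths are GENCODE 29 medians, and GC content, which moves with the fold changes, was not removed from it. All 49 members together took 0.848% to 0.882% of raw counts in control and 0.917% to 0.986% in resistant libraries. On the TMM scale the order was the other way, with 0.967% to 0.984% for control libraries and 0.819% to 0.868% for resistant ones, so no direction is read from this sum.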
